A study of Mus musculus with 18 samples.

Results

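The levels of 8 genes set apart by Nfkb2 deficiency, Ctse, Foxq1, Il9r, Timmdc1, Rhbdf1, Col26a1, Mmp13 and Efna5, were followed across mouse pre-B cells of 3 genotypes, with and without interleukin 7 (IL-7). They were taken from 16593 genes with a symbol on the array by their symbol alone, and that list had been selected on measured values of these arrays, a strong difference between Art:Nfkb2-labelled and Art-labelled arrays or a different change on IL-7 withdrawal between them. Values from those 2 genotypes therefore describe the genes and are given without a test. All 8 were among the 8446 entries tested. The array holds 11 probes for them, 3 for Mmp13, 2 for Efna5 and 1 for each of the others, and 1 probe per gene was detected often enough to be used. The other probes of Mmp13 and Efna5 were detected on no array.

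The data comprised 18 one-colour Illumina MouseRef-8 arrays of RNA from primary pre-B cells, in 6 groups of 3. Marrow came from mice 4 to 6 weeks old of mixed C57BL/6 and BALB/c descent and was grown for 7 to 10 days with 5 ng/mL of IL-7, a cytokine that makes early B cells grow. All groups carried the IgH and Bcl2 transgenes, so every cell had a ready-made heavy chain and a survival gene, and the cells differed by label in being Rag1-/- (Rag-labelled, unable to cut antigen receptor genes), Art-/- (Art-labelled, without the nuclease Artemis, so that RAG-made ends are not opened and joined) or Art-/-:Nfkb2-/- (Art:Nfkb2-labelled, without Artemis and Nfkb2). The double deficiency is taken from the sample titles, since the genotype label writes Nfkb2 with no knockout mark. Each of 3 cultures per genotype gave 1 array in IL-7 and 1 at 2 days after withdrawal. There was no Nfkb2-deficient group with intact Artemis or without RAG1, so a difference from Art-labelled cells is one between doubly and singly deficient cells.

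Nfkb2 encodes p100, a precursor that holds NF-kB dimers in the cytoplasm and that is cut to p52, the partner of RelB in the noncanonical pathway. In B-lineage cells that pathway acts downstream of receptors such as BAFF receptor and CD40, and RAG-made DNA breaks are known to switch on NF-kB in pre-B cells. IL-7 acts through the common gamma chain and STAT5 to sustain growth, and its loss lets pre-B cells leave the cell cycle and turn to light-chain recombination.

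Between 10091 and 10894 of 25697 probes were detected per array (39.3% to 42.4%), and replicates correlated at 0.979 to 0.993 across genes. Precision is limited by the 3 arrays per group. After withdrawal the Nfkb2 probe read 9.21 ± 0.18 (SD, n = 3) on Art:Nfkb2-labelled arrays, which is not lower than on Art-labelled (8.80 ± 0.05) or Rag-labelled (7.56 ± 0.09) ones. Rag1 was highest on the withdrawn Rag-labelled arrays, at 12.41 to 12.88. No source used here places either probe inside or outside the deleted part, so neither level checks a label. The summed signal of 10 B-cell precursor markers lay between 16.85 and 17.43 on the log2 scale on every array, and T cell markers were detected on none. The Y-linked genes Eif2s3y and Kdm5d were detected on all Rag-labelled arrays and on both arrays of Art:Nfkb2-labelled culture 3, and Xist on all Art-labelled arrays and on those of Art:Nfkb2-labelled cultures 1 and 2. Cultures of different sex thus stand behind the 3 genotypes, and results are given below with and without culture 3.

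For Mmp13 and Efna5 the reference table of RefSeq promoters (build GRCm38.p6) holds the window just before the gene's start. Both are shown because they belong to the 2 members that were lower in Art:Nfkb2-labelled than in Art-labelled cells after withdrawal with detection on the Art-labelled arrays, and capitals mark the single motif match found. 4 of the 8 genes had a promoter entry in the table, those of Il9r and Timmdc1 included. The 250 bases before the start run 5′ to 3′ on the gene's own strand, at chr9:7272264-7272513 on the plus strand for Mmp13 and at chr17:62881318-62881567 on the minus strand for Efna5.
Mmp13: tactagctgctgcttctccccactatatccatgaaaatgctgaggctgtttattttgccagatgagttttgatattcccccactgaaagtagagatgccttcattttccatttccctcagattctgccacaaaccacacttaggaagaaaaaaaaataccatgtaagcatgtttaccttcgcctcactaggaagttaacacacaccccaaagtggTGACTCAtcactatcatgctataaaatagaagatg
Efna5: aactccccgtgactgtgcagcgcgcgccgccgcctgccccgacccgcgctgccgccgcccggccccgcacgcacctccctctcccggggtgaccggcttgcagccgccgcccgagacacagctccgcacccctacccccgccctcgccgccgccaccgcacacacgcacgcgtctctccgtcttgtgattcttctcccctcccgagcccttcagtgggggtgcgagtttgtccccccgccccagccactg
Neither the NF-kB-like letters GGGA, then 4 arbitrary bases, then CC, nor the STAT-like letters TTCNNNGAA occurred on either strand in any of the 4 windows. Of 32851 promoter windows of the same length, 17.6% held the first and 7.02% the second. The AP-1-like letters TGANTCA, added after the windows had been seen, occurred once, in Mmp13, 35 bases before the start on the plus strand, and are held by 6.75% of windows. A match is a description of the letters, not a binding site.

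The intracellular enzyme and the transcription factor among the 8 genes were high on every Art:Nfkb2-labelled array. Ctse (probe ILMN_2960325) encodes cathepsin E, an aspartic protease of endosomes known for its part in antigen processing. Its log2 signal was 13.54, 12.74 and 12.74 in IL-7 and 13.98, 13.25 and 13.21 after withdrawal in Art:Nfkb2-labelled cells. In Art-labelled cells it was 8.20, 8.81 and 8.39 in IL-7 and 9.72, 9.78 and 9.83 withdrawn, and in Rag-labelled cells 9.75, 9.06 and 9.63 in IL-7 and 9.87, 9.94 and 10.14 withdrawn. The 6 Art:Nfkb2-labelled arrays were thus the highest, with no overlap, and Art-labelled cells in IL-7 the lowest. Against Art-labelled cells the level was 23.2-fold higher in IL-7 (log2 difference 4.54 ± 0.25, SE) and higher by 3.70 ± 0.25 after withdrawal, and by size the IL-7 difference ranked 1 of the 7971 entries detected on an array of both groups.

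Foxq1 (ILMN_1224637), a forkhead transcription factor whose loss in mice alters hair, was detected on the 6 Art:Nfkb2-labelled arrays and on no other. It read 8.39, 7.79 and 7.18 in IL-7 and 9.43, 8.49 and 8.58 withdrawn. On the other 12 arrays the probe lay between 4.62 and 4.99, which is only a bound on the gene's level. The level was at least 3.05-fold higher than in Art-labelled cells in IL-7 and at least 5.60-fold higher after withdrawal. Culture 1 had the highest Foxq1 and the highest Ctse of the Art:Nfkb2-labelled cultures, both in IL-7 and withdrawn.

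Timmdc1 (ILMN_2838965) encodes a protein of the inner mitochondrial membrane needed to assemble respiratory complex I. In Art:Nfkb2-labelled cells it read 9.72, 9.79 and 10.68 in IL-7 and 9.84, 9.91 and 10.68 withdrawn, and on the other 12 arrays it lay between 7.25 and 7.81. The Rag-labelled and Art-labelled groups overlapped with each other in both conditions. The difference from Art-labelled cells was 6.32-fold in IL-7 (2.66 ± 0.24) and 5.76-fold withdrawn (2.53 ± 0.24). Culture 3, the culture with Y-linked signal, stood above the other Art:Nfkb2-labelled cultures for this gene, and without it the differences were 2.35 and 2.26.

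**Figure D1:**
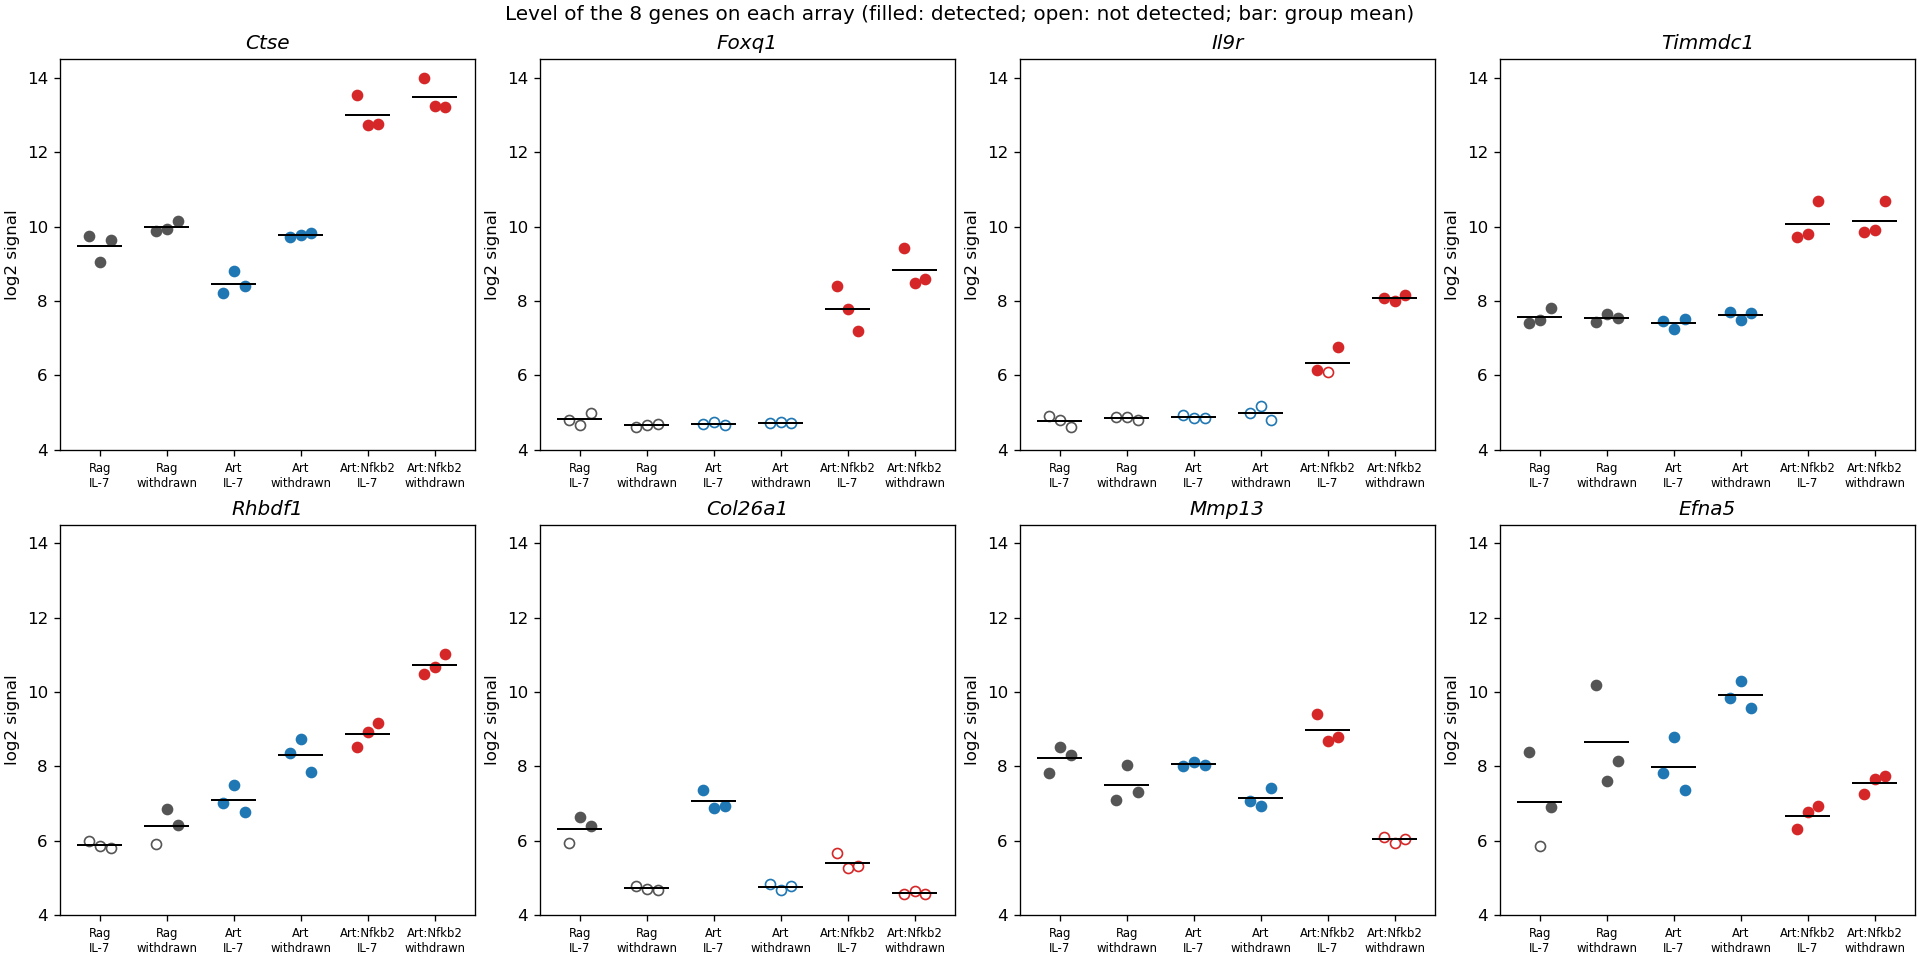
Normalised log2 signal of the 8 genes (1 panel each) on each of the 18 arrays, by genotype label and IL-7 condition. Filled points mark arrays that detected the probe, open points arrays that did not, and bars the mean of 3 arrays. Ctse, Foxq1 and Timmdc1 are highest on all 6 Art:Nfkb2-labelled arrays, Rhbdf1 climbs through the genotypes, and Mmp13 lies between 5.95 and 6.12, undetected, on the withdrawn Art:Nfkb2-labelled arrays.

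The receptor Il9r (ILMN_2688364) and the trafficking factor Rhbdf1 (ILMN_2657828) were higher in Art:Nfkb2-labelled cells and higher again after withdrawal there. Il9r encodes the chain of the interleukin 9 receptor that binds the cytokine and signals together with the common gamma chain, which the IL-7 receptor also uses. It was detected on no Rag-labelled or Art-labelled array, where the probe lay between 4.62 and 5.18. In Art:Nfkb2-labelled cells it read 6.15, 6.09 and 6.77 in IL-7, detected in cultures 1 and 3, and 8.07, 7.99 and 8.17 withdrawn, detected in all. The groups did not overlap. The withdrawn level was 3.34-fold higher than that in IL-7, at least 3.30-fold higher than in Art-labelled withdrawn cells, and the IL-7 level at least 1.11-fold higher than in Art-labelled cells.

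Rhbdf1 encodes iRhom1, a rhomboid protein without protease activity that helps the sheddase ADAM17 to leave the endoplasmic reticulum. Its signal was 5.99, 5.85 and 5.81 in Rag-labelled cells in IL-7, on no array detected, and 5.91, 6.85 and 6.42 withdrawn, detected on 2 arrays. In Art-labelled cells it was 7.01, 7.50 and 6.77 in IL-7 and 8.35, 8.75 and 7.85 withdrawn, and in Art:Nfkb2-labelled cells 8.52, 8.92 and 9.18 in IL-7 and 10.47, 10.66 and 11.03 withdrawn. The order of the genotypes was the same in both conditions, with no overlap between genotypes in either. Art:Nfkb2-labelled cells were 3.43-fold above Art-labelled cells in IL-7 (1.78 ± 0.27) and 5.29-fold above them withdrawn (2.40 ± 0.27). Art-labelled cells were in turn at least 2.00-fold above Rag-labelled cells in IL-7 and 3.80-fold above them withdrawn. Of the 5 members that were higher in Art:Nfkb2-labelled cells in both conditions, Rhbdf1 was the one whose Art-labelled level also exceeded the Rag-labelled level in both conditions without overlap, and Art-labelled and Rag-labelled arrays did not overlap for 31.7% of all entries withdrawn and 21.6% in IL-7.

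The matrix and surface proteins took other courses. Mmp13 (ILMN_2737685) encodes collagenase 3, a secreted protease of fibrillar collagen. In Art:Nfkb2-labelled cells it read 9.41, 8.69 and 8.79 in IL-7 and 6.12, 5.95 and 6.06 withdrawn, where it was detected on no array. In Art-labelled cells it was 8.02, 8.12 and 8.04 in IL-7 and 7.07, 6.94 and 7.42 withdrawn, and in Rag-labelled cells 7.83, 8.52 and 8.31 in IL-7 and 7.10, 8.05 and 7.32 withdrawn. The order of the groups thus turned over: Art:Nfkb2-labelled cells were highest in IL-7, 1.88-fold above Art-labelled cells (0.91 ± 0.24), and lowest after withdrawal, at least 1.81-fold below them. The withdrawn level was at least 6.39-fold below the IL-7 level in Art:Nfkb2-labelled cells and 1.88-fold below it in Art-labelled cells.

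Col26a1 (ILMN_1247358) encodes a chain of collagen XXVI. It was detected on 5 arrays, all in IL-7: the 3 Art-labelled arrays at 7.37, 6.89 and 6.94 and 2 of the Rag-labelled arrays, which read 5.93, 6.65 and 6.41. On Art:Nfkb2-labelled arrays in IL-7 the probe gave 5.68, 5.26 and 5.31 without being detected, at least 1.94-fold below the Art-labelled level. After withdrawal it was undetected in every genotype, between 4.58 and 4.83. This gene therefore differed between Art:Nfkb2-labelled and Art-labelled cells in IL-7, and its smaller measured fall on withdrawal there started from a level that was already below detection.

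Efna5 (ILMN_2757641) encodes ephrin-A5, a membrane-tethered ligand of EphA receptors. In Art-labelled cells it read 7.82, 8.78 and 7.37 in IL-7 and 9.85, 10.29 and 9.58 withdrawn, and in Art:Nfkb2-labelled cells 6.32, 6.77 and 6.94 in IL-7 and 7.25, 7.65 and 7.74 withdrawn. Art:Nfkb2-labelled cells were 2.48-fold lower in IL-7 (log2 difference -1.31 ± 0.62) and 5.14-fold lower withdrawn (-2.36 ± 0.62), with no overlap in either. Rag-labelled cells spread widely, at 8.39, 5.85 and 6.92 in IL-7 and 10.20, 7.60 and 8.14 withdrawn. Their culture 1 was the highest in both conditions, and neither Rag-labelled group was clear of the Art:Nfkb2-labelled arrays of the same condition.

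**Figure D2:**
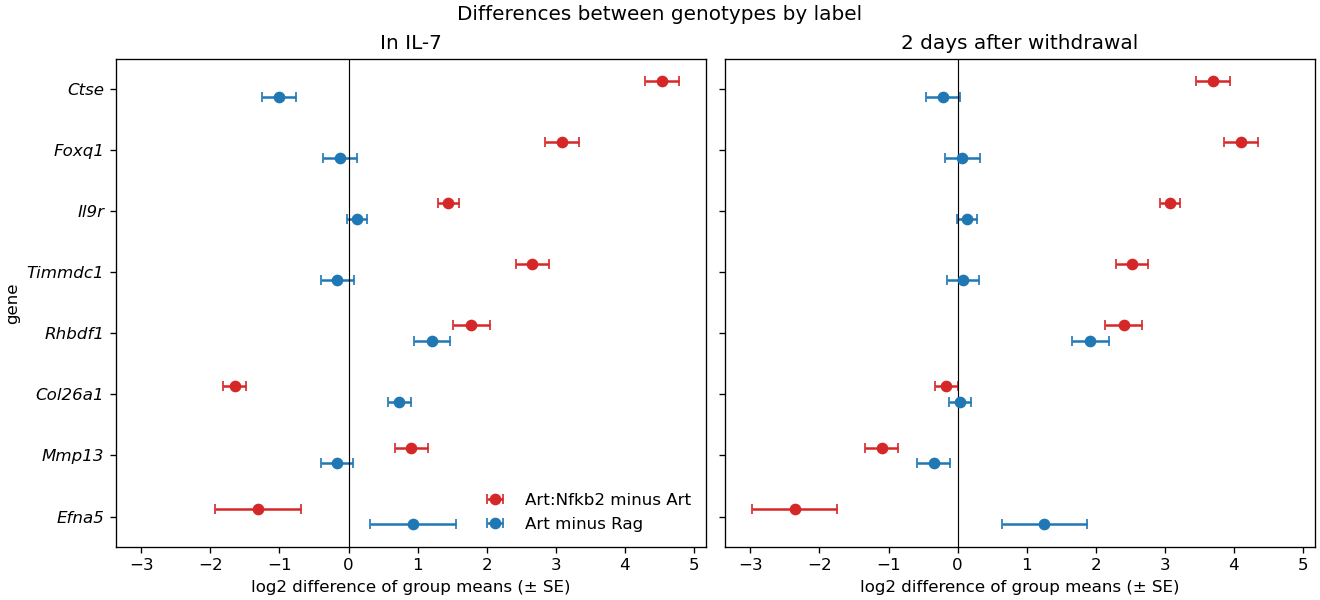
Difference of group means (log2, ± SE) for the 8 genes in IL-7 (left) and 2 days after withdrawal (right), Art:Nfkb2 minus Art in red and Art minus Rag in blue, 3 arrays per group. The red points of Ctse, Foxq1, Il9r, Timmdc1 and Rhbdf1 lie above 0 in both panels and those of Efna5 below it, while Mmp13 moves from 0.91 to -1.10. Not detected were Foxq1 and Il9r in the Rag and Art groups and Rhbdf1 in Rag cells in IL-7. Nor were Col26a1 outside the Art and Rag groups in IL-7 and Mmp13 in withdrawn Art:Nfkb2 cells. Differences that involve these groups are plotted as measured values and not as bounds. Where neither group was detected, no fold can be given.

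Across the whole table, the comparison of the Art:Nfkb2-labelled with the Art-labelled genotype called 337 entries (3.99%) after withdrawal, 371 (4.39%) in IL-7 and 18 (0.213%) for the difference of the withdrawal response, by limma with Benjamini-Hochberg adjustment at 0.05. Of the entries called after withdrawal 44.5% were higher, against 56.6% with arrays scaled to a common median. With the 2 arrays of each culture treated as a block, 92 entries were called for the difference of the response. The arrays of the 2 genotypes did not overlap for 25.2% of entries withdrawn and 23.3% in IL-7. The 8 genes did not overlap in either condition, which follows from how they were chosen. After withdrawal 4 of them were detected in both groups, and among the 7708 such entries Ctse ranked 2 by size of the difference, Timmdc1 6, Rhbdf1 9 and Efna5 12. Mmp13, Foxq1, Il9r and Col26a1 had an undetected group there and were given no rank.

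Without Art:Nfkb2-labelled culture 3, the culture with Y-linked signal, the differences withdrawn were 3.83 for Ctse, 2.25 for Rhbdf1 and -2.46 for Efna5, and in IL-7 4.67, 1.62 and -1.45, while Mmp13 was again higher in IL-7. Of the genes with an undetected group, Foxq1 was then at least 6.11-fold higher withdrawn and at least 3.76-fold in IL-7, and Il9r at least 3.20-fold higher withdrawn. Mmp13 was at least 1.86-fold lower withdrawn and Col26a1 at least 1.94-fold lower in IL-7. No bound could be given for Il9r in IL-7, where 1 of the 2 remaining arrays detected it and the signal did not exceed the detection floor.

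How each gene changed within a culture when IL-7 was withdrawn was read from the paired arrays. In Art:Nfkb2-labelled cultures Il9r changed by 1.91, 1.91 and 1.39 on the log2 scale, while in Art-labelled and Rag-labelled cultures its undetected probe moved by at most 0.32. Foxq1 changed by 1.04, 0.70 and 1.40 in Art:Nfkb2-labelled cultures. Rhbdf1 changed by 1.95, 1.74 and 1.85 in Art:Nfkb2-labelled and by 1.34, 1.25 and 1.08 in Art-labelled cultures. These 3 genes were higher after withdrawal in every Art:Nfkb2-labelled culture.

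The Mmp13 signal moved the other way, by -3.30, -2.74 and -2.73 in Art:Nfkb2-labelled cultures, where it ended below detection. The Art-labelled cultures changed by -0.94, -1.18 and -0.62, and the Rag-labelled ones by -0.73, -0.47 and -0.99. Efna5 changed by 0.93, 0.88 and 0.80 in Art:Nfkb2-labelled and by 2.04, 1.50 and 2.21 in Art-labelled cultures. Ctse changed by 0.44, 0.51 and 0.47 in Art:Nfkb2-labelled and by 1.51, 0.97 and 1.44 in Art-labelled cultures, so that the gap between the genotypes was narrower after withdrawal. Timmdc1 moved by no more than 0.27 in size in any culture.

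**Figure D3:**
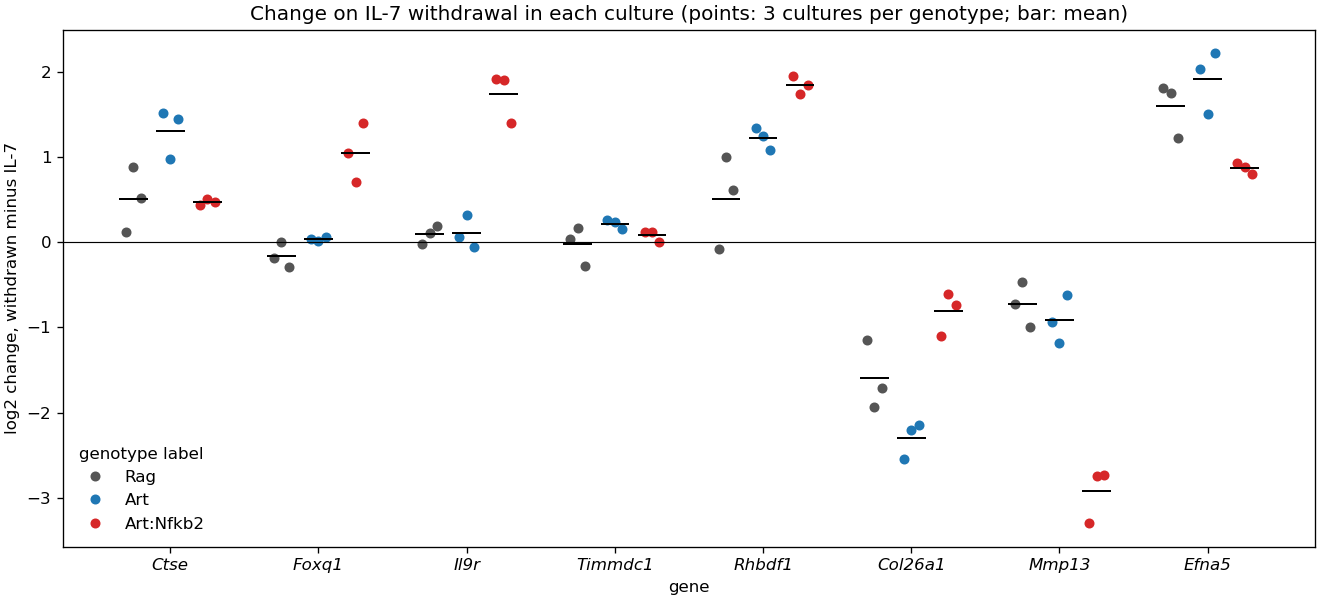
Change in log2 signal from IL-7 to 2 days after withdrawal in each of 9 cultures, for the 8 genes. Points are cultures, 3 per genotype label, and bars their means. The 3 Art:Nfkb2 cultures stand apart from all others for Il9r (1.39 to 1.91) and Mmp13 (-3.30 to -2.73). They also do so for Foxq1, Rhbdf1, Efna5 and, by a small margin, Col26a1, but not for Ctse or Timmdc1. The genes were chosen partly on this change, so standing apart follows in part from the choice, and the share of all entries was not counted. Col26a1 was undetected in Art:Nfkb2 cells in both conditions, and Foxq1 and Il9r in all Rag and Art cells, so those changes lie below detection. Efna5 was higher after withdrawal in every culture.

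Withdrawal in Rag-labelled cells took no part in choosing the genes and was tested. In that comparison 44.4% of all entries were called and 3 of the 8 genes were, Col26a1, Mmp13 and Efna5. Foxq1 and Il9r, not among these, were detected on no Rag-labelled array and passed the detection filter only through Art:Nfkb2-labelled arrays. Their tests here compared undetected signals, so the count out of 8 is not a fair match for the share of all entries. With the replicate block 53.5% of all entries and 5 of the 8 genes were called. With arrays scaled to a common median the share of those entries that were higher went from 56.2% to 33.8%, and the median of all entries from 0.10 to -0.0063. Col26a1 fell, by a measured 1.60 on the log2 scale (SE 0.16, limma adjusted p = 1.85e-06), out of detection on every withdrawn array, and no lower bound on the fold could be given because the mean in IL-7 lay just under the lowest signals detected on the withdrawn arrays. The measured difference was -0.70 with no background correction and -0.93 with an offset of 50. Mmp13 fell by 0.73 (SE 0.24, limma adjusted p = 0.0203), lower in 3 of 3 cultures although the groups overlapped. Its adjusted p was 0.0975 in a fit of the Rag-labelled arrays alone, and between 0.0603 and 0.101 in limma fits without replicate 2 or 3 in IL-7 or without replicate 1 or 3 withdrawn.

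Efna5 rose by 1.59 (SE 0.62, limma adjusted p = 0.0477), and in the 3 cultures by 1.81, 1.75 and 1.22. The groups overlapped, and the call was lost in 20 of the 30 alternative fits, among them that of the Rag-labelled arrays alone (limma adjusted p = 0.182). Without replicate 1 of the withdrawn arrays the difference was 0.82 (limma adjusted p = 0.257) and without replicate 2 in IL-7 it was 0.99 (limma adjusted p = 0.236), while with the replicate block the limma adjusted p was 1.30e-05. Ctse changed by 0.51 (95% interval -0.02 to 1.04, limma adjusted p = 0.108) and Rhbdf1 by 0.51 (-0.06 to 1.07, limma adjusted p = 0.132). With the replicate block both passed (limma adjusted p = 0.0125 for Ctse and 0.0240 for Rhbdf1). Timmdc1 at -0.03 (-0.53 to 0.48) did not pass. Nor did Il9r at 0.09 (-0.23 to 0.40) and Foxq1 at -0.16 (-0.69 to 0.37), but both were undetected on both sides, so their tests could not show a change.

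The genes next to the 8 on their chromosomes were read as well, 5 to each side among the genes on the array. Of 71 such genes, 39 were tested, and between these 2 genotypes 7 were called after withdrawal and 8 in IL-7, against 3.99% and 4.39% of all entries. They are not members and were taken by position, so their tests were not part of the choice.

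Il9r and Rhbdf1 turned out to be near neighbours on chromosome 11, with a single gene of the array, Snrnp25, between them. Snrnp25 encodes a protein of the minor spliceosome. It read 13.16, 13.28 and 13.43 in IL-7 and 14.68, 14.75 and 14.65 withdrawn in Art:Nfkb2-labelled cells, against 12.38, 12.64 and 12.51 and then 13.12, 13.12 and 13.01 in Art-labelled cells. The Rag-labelled arrays were at 11.98, 12.22 and 12.00 in IL-7 and 11.43, 11.79 and 11.59 withdrawn. Its genotype order was thus that of Rhbdf1, with no overlap between genotypes in either condition.

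Snrnp25 was 1.61 ± 0.11 (SE) higher on the log2 scale in Art:Nfkb2-labelled than in Art-labelled cells after withdrawal and 0.78 higher in IL-7, and it was called in all 30 alternative fits of each. Its rise on withdrawal was 1.40 in Art:Nfkb2-labelled and 0.58 in Art-labelled cells, with an adjusted p of 0.0398 for the difference by limma. That call was lost in 17 of the 30 fits, with an adjusted p of 0.231, 0.259 and 0.102 by limma without Art:Nfkb2-labelled culture 1, 2 and 3. In Rag-labelled cells it fell by 0.46 (limma adjusted p = 0.00284).

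On the other side of Il9r, Nsg2, which encodes a vesicle protein best known from neurons, was higher by 0.99 withdrawn and 1.16 in IL-7. Beyond Rhbdf1, Mpg, a DNA glycosylase that removes alkylated bases, was higher by 0.78 withdrawn and by 0.26 in IL-7, where it was not called. Nsg2 was called in all 30 fits in both conditions and Mpg in all 30 withdrawn. The outer genes tested, Stc2, which was undetected in withdrawn Art-labelled cells, and Nprl3 (0.29 withdrawn), did not pass. Of the 5 tested non-member genes around Il9r, 3 were higher after withdrawal and 0 lower, where 1.78% of all entries were higher.

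Around Timmdc1, 1 of 4 tested neighbours passed. Poglut1, the adjoining gene, which encodes a glucosyltransferase that modifies Notch, was 0.85 higher after withdrawal and 0.58 higher in IL-7, with every Art:Nfkb2-labelled array above every Art-labelled one. As for Timmdc1, culture 3 was the highest Art:Nfkb2-labelled culture, at 11.32 in IL-7 and 11.80 withdrawn. The IL-7 call of Poglut1 was lost in 2 of 30 fits. Cd80 on the other side, a co-stimulatory ligand, differed by -0.06 and 0.23 and did not pass.

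Around Col26a1 the directions were mixed. Ift22, a small GTPase of intraflagellar transport next to it, was lower by 0.78 in IL-7, where Col26a1 was also lower, and Cux1, a homeobox repressor, was lower by 0.55 there. Myl10, a myosin light chain of precursor lymphocytes, was at least 1.80-fold lower after withdrawal, where it was undetected in Art:Nfkb2-labelled cells, and Plod3, a lysyl hydroxylase of collagens, was higher in both conditions (0.38 withdrawn and 0.45 in IL-7). The call of Plod3 was lost in 17 of 30 fits withdrawn and in 7 in IL-7, and that of Cux1 in 9 in IL-7. Near Ctse, Ikbke, an IKK-related kinase, was lower by 0.89 withdrawn and 0.60 in IL-7. The IL-7 call of Ikbke was lost in 7 of 30 fits. Near Efna5, Adgre1, a macrophage surface protein, was at least 3.23-fold higher in IL-7 and undetected in Art-labelled cells, a call lost in 8 of 30 fits. The tested neighbours of Foxq1 (6) and of Mmp13 (5) did not pass in either condition.

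**Figure D4:**
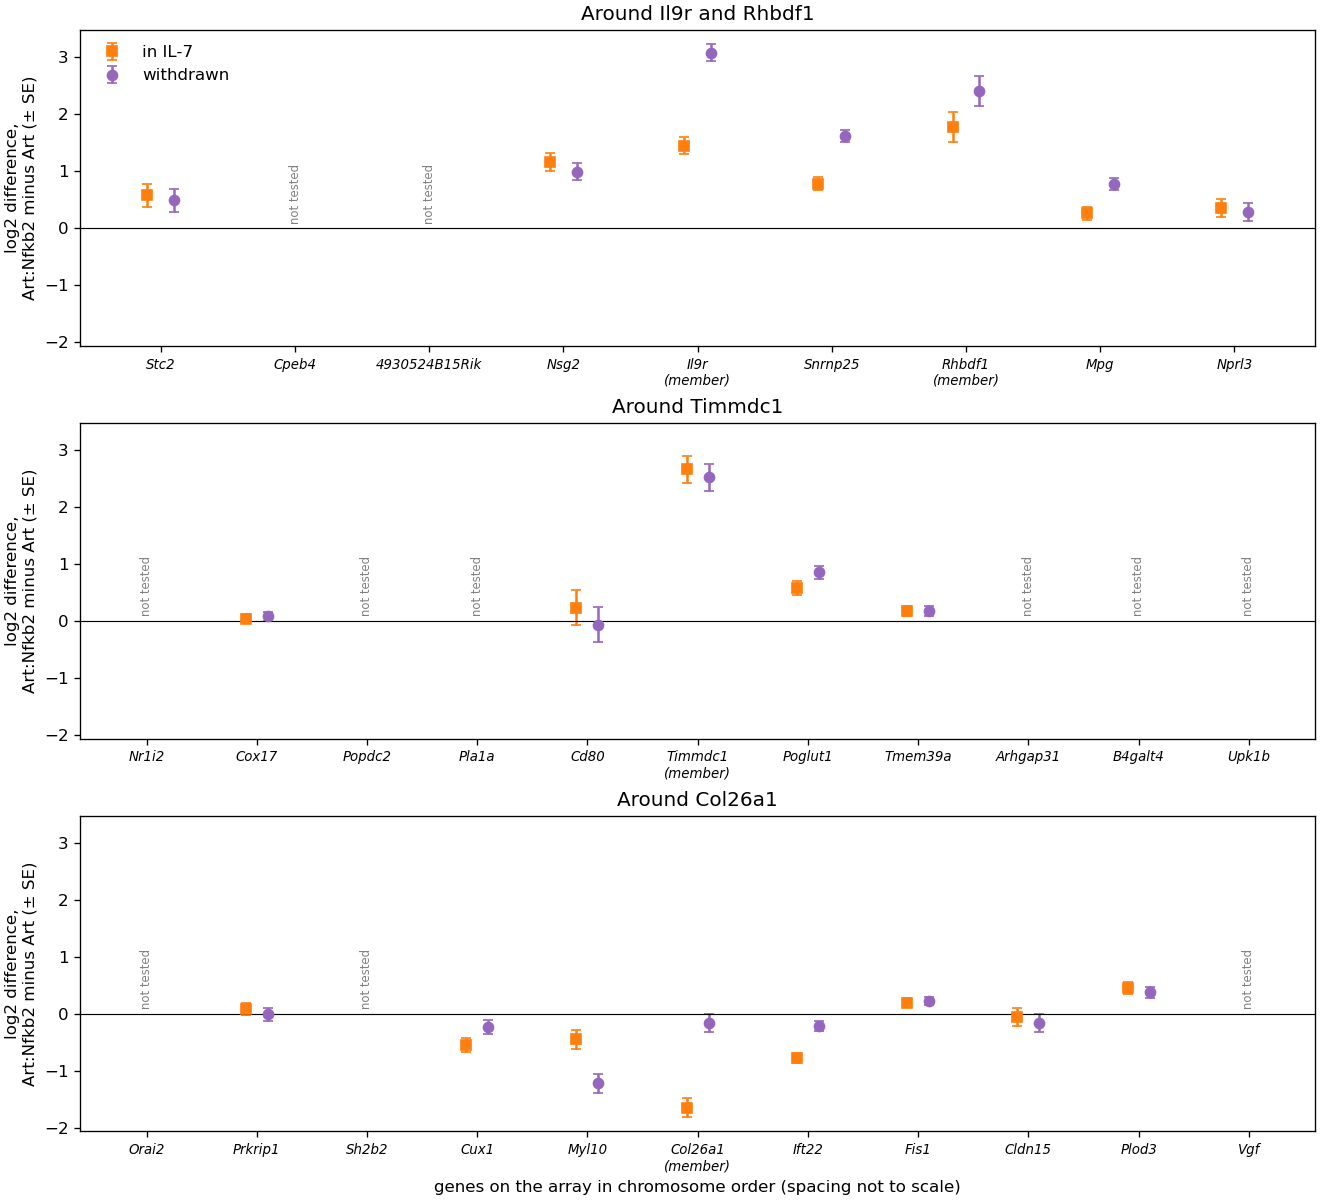
Art:Nfkb2 minus Art difference (log2, ± SE) of the genes around Il9r and Rhbdf1, Timmdc1 and Col26a1, in chromosome order, in IL-7 (squares) and withdrawn (circles). Genes from Nsg2 to Mpg lie above 0 in both conditions, with Il9r and Rhbdf1 highest, while around Timmdc1 only the adjoining Poglut1 was called. Il9r was not detected in Art cells, nor Col26a1 in either withdrawn group or in Art:Nfkb2 cells in IL-7, nor Myl10 in withdrawn Art:Nfkb2 cells, nor Stc2 in withdrawn Art cells, so their plotted differences are measured values below detection.

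Relatives of each member by function were read from 9 lists, taken up with earlier results of these data known. Of all entries, 3.01% were called higher and 1.39% lower in IL-7, and 1.78% higher and 2.21% lower withdrawn. Of 14 tested cathepsins and their inhibitors, Ctsk, the bone-resorbing cysteine cathepsin, was at least 1.26-fold higher withdrawn, and Ctsw (by 1.61) and the granule protease Ctsg (at least 1.05-fold) were higher in IL-7, with 0 lower. Neither Ctsk withdrawn nor Ctsg in IL-7 was detected on an Art-labelled array. Outside the Art:Nfkb2-labelled arrays, Ctsg was detected on 1 Rag-labelled array in IL-7 and Ctsk on 1 Rag-labelled array in each condition. Both thus passed the detection filter only with the Art:Nfkb2-labelled arrays, and their calls are not independent of the difference. The list median was 0.10 withdrawn and 0.28 in IL-7, beside -0.0015 and 0.0070 over all entries. Of 11 forkhead genes, 1 was called, Foxm1, a driver of the cell cycle, lower by 0.61 withdrawn and 0.51 in IL-7. Of 10 genes of the common gamma chain receptors, their cytokines and kinases, Il15 was lower by 1.16 withdrawn and 0 were called in IL-7 by limma, where 3 had an unadjusted p under 0.05.

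Of 11 complex I assembly factors, limma called 0 in either condition, with 4 at an unadjusted p under 0.05 withdrawn and 1 in IL-7. Of 11 genes of the rhomboid family, ADAM17 and its ligands, it called 0 in either, with 0 and 1 at that level. Of 3 tested ephrins and Eph receptors it called 0, with 0 at that level in either. Among 6 collagens and matrix proteins Emilin2, an elastin-associated glycoprotein, was higher by 1.54 in IL-7. Among 9 matrix metalloproteinases and inhibitors Mmp17, a membrane-anchored metalloproteinase, was higher in both conditions.

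Mmp17 read 6.54, 6.79 and 6.81 in IL-7 and 7.03, 7.15 and 7.14 withdrawn in Art:Nfkb2-labelled cells, and between 5.17 and 5.90, undetected, in the other 4 groups. It was at least 1.69-fold above Art-labelled cells withdrawn and at least 1.44-fold in IL-7. It was thus higher after withdrawal, where Mmp13 was lower. Mmp17 passed the detection filter only through the Art:Nfkb2-labelled arrays, where it is high. Its calls are therefore not independent of the difference, and its values are a description given without a p-value.

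Of 24 tested NF-kB genes, 3 were higher in IL-7, beside 3.01% of all entries, and 1 after withdrawal, beside 1.78%, with 0 lower. Ltb, which encodes lymphotoxin beta, a ligand of the noncanonical pathway, was higher by 1.12 in IL-7. Nfkbib, an inhibitor of NF-kB, was higher by 0.61 in IL-7, and Traf1, an adaptor of TNF receptors and a known NF-kB target, by 1.11 in IL-7 and 0.82 withdrawn, with detection on 1 of the 3 Art-labelled arrays in IL-7. The list's median difference was 0.28 in IL-7 and 0.08 withdrawn, beside 0.0070 and -0.0015 over all entries. For the difference of the withdrawal response limma called 0 of the 24, with 5 at an unadjusted p under 0.05.

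The genes whose levels ran closest to a member's were found by Pearson correlation over the 18 arrays. These values are set largely by the genotype groups, which all pairs share, and describe likeness only. Foxq1 ran with Pgk1, a glycolytic enzyme (r = 0.98), and Timmdc1 with Pglyrp1, a peptidoglycan-binding protein (r = 0.98). Neither Pgk1 nor Pglyrp1 was detected on a Rag-labelled or Art-labelled array. Both passed the detection filter only through the Art:Nfkb2-labelled arrays, so their likeness to these members is not independent of that filter. The Pgk1 probe used, ILMN_2797973, read 8.18 to 9.10 on Art:Nfkb2-labelled arrays and 4.75 to 5.39, undetected, on all others. Whether this probe follows the enzyme's own mRNA was not tested, so its values are not read as the level of that mRNA. Ctse ran with Foxq1 (0.96) and with the DNA sensor Aim2 (0.95), and Rhbdf1 with Ift140, of intraflagellar transport (0.98), and with the unnamed probe ILMN_1260493 (0.97).

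Il9r ran with Lysmd2 and Ehd3 (both 0.95), and Col26a1 with Polq, DNA polymerase theta (0.95), and Armcx1 (0.94). Mmp13 ran with Ifi27l2a and Ier3 (both 0.92), and Efna5 with Bmf, a death-promoting member of the BCL2 family (0.92), and Arhgap17 (0.88). Lysmd2, too, was detected on no Rag-labelled or Art-labelled array and passed the filter through Art:Nfkb2-labelled arrays alone. Polq was detected only on the 3 Art-labelled arrays in IL-7, and Armcx1 only on 2 Rag-labelled and 1 Art-labelled array in IL-7. The likeness of Col26a1 to Polq and Armcx1 thus rests mostly on undetected signals. Among the members, the 5 high in Art:Nfkb2-labelled cells correlated at 0.80 to 0.96 with each other. The other 3 ran with none of them, at -0.57 to -0.06.

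Myeloid markers moved with the genotype. Of 12 tested, 7 were higher in Art:Nfkb2-labelled than in Art-labelled cells in IL-7 (Adgre1, C1qa, C1qb, C1qc, Cd14, Elane and Fcgr3) and 1 after withdrawal (Fcgr3), with 0 lower. In IL-7 their summed signal was 14.25 to 14.90 for Art:Nfkb2-labelled and 12.92 to 13.17 for Art-labelled arrays, and after withdrawal 13.09 to 13.62 against 11.91 to 12.08. In Rag-labelled cells it was 13.01 to 14.59 in IL-7 and 10.85 to 13.03 withdrawn. Itgam and Marco were detected on no array, and Adgre1 and C1qa on no Art-labelled array. The part of these cells in the levels of the 8 genes was not tested, and in bulk RNA more cells of a type cannot be told from more RNA per cell. The Rag-labelled array with a myeloid sum of 14.59 lay within the Art:Nfkb2-labelled range for that sum in IL-7. On that array Ctse read 9.63, Foxq1 4.99, Il9r 4.62, Timmdc1 7.81, Rhbdf1 5.81, Col26a1 6.41, Mmp13 8.31 and Efna5 6.92. A single array of another genotype decides nothing about the part of these cells. On withdrawal the myeloid sum was lower in every Art:Nfkb2-labelled culture, as were Mmp13 and Col26a1. Ctse, Foxq1, Il9r, Rhbdf1 and Efna5 were higher in each, and Timmdc1 changed by 0.12, 0.12 and 0.0023. These changes are a description, and a link between them was not tested. Ctsk, called above, is also an osteoclast marker, and Ctsg is a gene of immature granulocytes.

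Other markers differed as well. Of 4 tested markers of mature B or plasma cells, Fcer2a and Xbp1 were higher withdrawn and Ms4a1 in IL-7, and their summed signal withdrawn was 12.88 to 13.35 on Art:Nfkb2-labelled and 12.36 to 12.48 on Art-labelled arrays. Of 10 B-cell precursor markers, Vpreb1 was lower withdrawn. Of 2 tested NK markers, Nkg7 was higher in IL-7, with a sum of 9.54 to 10.31 against 8.86 to 9.24. The sum of 2 tested stromal markers withdrawn was 7.16 to 7.51 against 6.47 to 6.85, and limma called 0 of them. Neither was detected on an Art-labelled array, so the second range is a sum of undetected signals. Another 7, Col1a1 and Pdgfra among them, were detected on no array. The part of these markers' cells in the levels of the 8 genes was not tested.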

How the data were processed

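RNA of 18 samples, from 9 cultures, was measured on Illumina MouseRef-8 arrays. The authors deposited a table of probe signal intensity and, for each probe, a detection p-value on every array, not normalised between arrays per the file headers; Partek and GenomeStudio are named in the submitters' processing notes without version or role. A second deposited table of intensity, from its values background-subtracted on a linear scale (column medians 19.99 to 20.29, rank correlation 1 with the same array), was an alternative. The array files name no genome build.

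From the intensities, background was corrected with normexp using the detection p-values, arrays were quantile-normalised, and log2 was taken with an offset of 16 (limma 3.58.1, R 4.3.3); the deposited intensity values themselves were not on a log2 scale. Probes detected (p under 0.01) on at least 3 arrays were kept, 11356 of 25697, and genes with several were represented by their brightest, giving 8446 entries, of which 673 have a probe ID in place of a symbol. Of all probes 23978 carried 1 gene symbol, 0 several and 1719 none. One linear model over the 6 groups with empirical Bayes moderation gave differences, and p-values were adjusted over all entries by Benjamini-Hochberg, called at 0.05, two-sided. Where a group detected the probe on no array, a fold is given as "at least", against the higher of the lowest detected signal and the probe's own.

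Same-numbered arrays of a genotype deviated together (correlations 0.374 to 0.588, each array best with its own number), and the design describes independent cultures, so a fit with the replicate block is given where it changes a call. The genes named are the 8 members, Rag1 and Nfkb2, called genes of the lists and called neighbours (at most 4 per list), and the 2 most correlated genes per member; others were named after their values were seen. The members and lists were chosen with earlier results of these data known, and the rule for the members has no numeric threshold. Gene order came from a RefSeq table of GRCm38.p6. On simulated data for Rag-labelled withdrawal over 8446 genes, 34%, 88%, 92% and 100% of genes changed by log2 0.5, 1, 2 and 3 were called, with 5 unchanged genes called. Only 50 genes per size were changed there, with independent noise on each array and no detection floor. In the data 44.4% of entries were called and the arrays of a culture deviated together. These shares therefore do not give the sensitivity of the test on the data. No label says that cultures came from different mice. By its Y-linked and Xist signals, Art:Nfkb2-labelled culture 3 came from another mouse than cultures 1 and 2. The other cultures of a genotype could not be told apart in this way, so p-values measure the spread between cultures.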

Additional observations from a re-analysis of the deposited data

Results flagged for a closer look

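The change on IL-7 withdrawal of 3 genes was picked out because its difference between the genotypes, Art:Nfkb2-labelled minus Art-labelled on the log2 scale, passed the threshold of the fit across all entries. It was 1.63 for Il9r, -2.01 for Mmp13 and 1.48 for Col26a1. The genes were chosen partly on this contrast, so passing supports nothing here, and the values are a description. With the replicate block Foxq1 (1.01) and Efna5 (-1.05) passed too. Without Art:Nfkb2-labelled culture 1, 2 or 3 the values were 1.54, 1.55 and 1.80 for Il9r, -1.82, -2.10 and -2.11 for Mmp13 and 1.63, 1.38 and 1.44 for Col26a1, and Il9r without culture 3 was the only one of these that passed. By limma 0 entries of the whole table passed without culture 1 or without culture 2, with 352 and 378 at an unadjusted p under 0.05. Il9r in Art-labelled cells, Mmp13 in withdrawn Art:Nfkb2-labelled cells, and Col26a1 in all withdrawn cells and in Art:Nfkb2-labelled cells in IL-7 were below detection, so these are differences of measured values.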

How the results depend on the processing

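No called value of a member changed sign under the 30 alternatives tried. Many of these values come from contrasts on which the genes were chosen for large differences, so for them a stable sign follows largely from the choice and supports nothing. Among uncalled values 9 changed sign, of Timmdc1 on withdrawal and of Efna5 against Rag-labelled cells in IL-7 (main value -0.38, -0.98 to 0.29). Of the values for single members 2279 kept their call or stayed within 1 SD, 4 gained a call, 25 lost one and 72 moved by over 1 SD, 32 of them with no background correction, 20 with an offset of 50, 14 with the authors' value table, 4 without Art:Nfkb2-labelled replicate 3 in IL-7 and 2 without Art:Nfkb2-labelled culture 3. With no background correction the Art:Nfkb2-labelled minus Art-labelled differences went from 4.10 to 2.29 for Foxq1, from 3.08 to 1.54 for Il9r and from -1.10 to -0.53 for Mmp13 withdrawn, and in IL-7 from 3.09 to 1.55 for Foxq1, from 1.45 to 0.59 for Il9r and from -1.65 to -0.72 for Col26a1. Art-labelled minus Rag-labelled went from 1.92 to 1.16 for Rhbdf1 withdrawn, and the differences of the response from 1.63 to 0.95 for Il9r, from -2.01 to -1.23 for Mmp13 and from 1.48 to 0.56 for Col26a1. With an offset of 50 that of Il9r in IL-7 was 0.86. Median scaling turned the majority of called entries in 5 comparisons: the share that was higher went from 56.2% to 33.8% for Rag-labelled withdrawal, from 44.5% to 56.6% for Art:Nfkb2-labelled minus Art-labelled withdrawn, from 56.2% to 33.9% for Art-labelled minus Rag-labelled in IL-7, and for Art:Nfkb2-labelled minus Rag-labelled from 58.6% to 33.1% in IL-7 and from 49.3% to 58.9% withdrawn. Il9r and Col26a1 gave no value with detection on at least 6 arrays, and no slide is named, so none could be a block. With only the groups of a comparison fitted, the entries called went from 3753 to 2094 for Rag-labelled withdrawal, from 1607 to 980 for Art-labelled against Rag-labelled cells withdrawn and from 546 to 248 in IL-7, from 963 to 617 for Art:Nfkb2-labelled against Rag-labelled cells in IL-7, and from 18 to 39 for the difference of the response. That last count was 92 with the replicate block, 8 with arrays scaled to a common median (37.5% higher, against 50% before, with the median of all entries moving from -0.02 to 0.09), 11 with no background correction and 9 with no filter on dim probes. The replicate block moved no other count by over 1.5 times. Median scaling gave 246 entries for Art:Nfkb2-labelled minus Art-labelled in IL-7, in place of 371.

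Without Art:Nfkb2-labelled culture 1, 2 or 3 that IL-7 count was 172, 238 and 197, and the count for the difference of the response 0, 0 and 4, with 352 and 378 entries at an unadjusted p under 0.05 where it was 0 by limma. Without culture 2, Art:Nfkb2-labelled minus Art-labelled withdrawn gave 215 in place of 337 and Art:Nfkb2-labelled against Rag-labelled cells in IL-7 gave 613. Without culture 3, Art:Nfkb2-labelled withdrawal gave 2261 in place of 3428. Leaving out 1 array at a time gave 187 to 448 and 215 to 391 entries for Art:Nfkb2-labelled minus Art-labelled in IL-7 and withdrawn, 314 to 678 and 1242 to 1716 for Art-labelled against Rag-labelled, 668 to 1056 and 1709 to 2276 for Art:Nfkb2-labelled against Rag-labelled, 4 to 30 for the difference of the response, and for withdrawal 2894 to 3885 in Rag-labelled, 3173 to 4027 in Art-labelled and 2773 to 3654 in Art:Nfkb2-labelled cells. The causes were not tested. Levels below detection limit Foxq1, Il9r, Col26a1 and, withdrawn, Mmp13 to bounds, or to no fold where neither group was detected.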
